A study of Mus musculus with 2 samples.

Results

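Mir101a and Mir101b are the mouse gene pair of miR-101, chosen by name: they are the genes annotated as Mir101a and Mir101b in GENCODE mouse release 21, and they are 2 of the 2202 microRNA genes in the data. Small RNA of under 30 nt was sequenced from the gastrocnemius, the large calf muscle, of female B6CASTF1/J mice aged 2 months. B6CASTF1/J mice are F1 hybrids of the C57BL/6J and CAST/EiJ strains. Both libraries belong to 1 group and are called replicate 2 and replicate 1 after their labels. The animals carry different numbers but 1 shared donor code, so SDs measure the spread between these samples, which may be technical in part. The exact binomial and Fisher p-values given further on cover counting error only. The labels name no treatment and no other condition, so the data give the level of the pair in muscle and how far it differed between the libraries.

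A microRNA gene is transcribed into a hairpin, which is cut into a short duplex of a 5p and a 3p arm. One arm is loaded into an Argonaute protein and guides it to messenger RNAs, mostly through bases 2 to 8 of the microRNA, the seed. miR-101 is best known as a repressor of Ezh2, the histone H3 lysine 27 methyltransferase of Polycomb repressive complex 2 (PRC2), first described in human cancer cells. Ezh2 keeps muscle genes silent in proliferating muscle precursors, and its level falls as they differentiate.

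The 3p arms, which carry the activity against Ezh2, are shown first because their sequence decides both what each gene can pair with and which reads can be told apart. The mature sequences are those of RefSeq on GRCm38.p6, written 5′ to 3′ with the seed in capitals.
mmu-miR-101a-3p: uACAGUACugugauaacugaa
mmu-miR-101b-3p: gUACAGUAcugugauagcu
As listed, miR-101b-3p starts 1 base further upstream, so its seed is UACAGUA and that of miR-101a-3p is ACAGUAC. The counts are per gene and hold no read ends, so which start was present in muscle was not measured. The 5p arms, which face these in the hairpin, are shown for comparison.
mmu-miR-101a-5p: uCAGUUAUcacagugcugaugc
mmu-miR-101b-5p: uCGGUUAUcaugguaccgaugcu
The hairpins follow, with the 3p arm in capitals.
Mir101a hairpin: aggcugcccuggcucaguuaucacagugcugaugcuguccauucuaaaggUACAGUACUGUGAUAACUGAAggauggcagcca
Mir101b hairpin: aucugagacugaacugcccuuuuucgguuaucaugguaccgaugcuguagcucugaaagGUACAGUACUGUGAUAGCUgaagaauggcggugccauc
The hairpins are 83 and 97 nt long and were identical at 69 of 99 columns of a global alignment (69.7%). Their longest common stretch is 20 nt and begins a few bases before the 3p arm. It takes in the first 15 bases of miR-101a-3p and the first 16 of miR-101b-3p.

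The genes lie at unrelated places of the mm10 assembly. Mir101a (ENSMUSG00000065451.1) is on the minus strand at chr4:101346945-101347027, within an exon of E130102H24Rik, a long noncoding gene on the same strand. Mir101b (ENSMUSG00000065556.1) is on the plus strand at chr19:29135279-29135375, in an intron of Rcl1, a protein of ribosome assembly. No other microRNA gene lies within 10000 bp of either.

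Both genes were detected in muscle, and Mir101b carried most of the counts. The level is given as CPM, counts on the gene's own strand per 1000000 such counts in all microRNA genes. Mir101a had 1146 counts in replicate 2 and 822 in replicate 1, which is 500.04 CPM (exact Clopper-Pearson 95% interval 472 to 529.8) and 421 CPM (393 to 451). Its mean was 461 ± 55.5 CPM (SD, n = 2). Mir101b had 6059 counts in replicate 2 and 4865 in replicate 1, which is 2644 CPM (2578 to 2711) and 2495 CPM (2425 to 2566). Its mean was 2569 ± 105 CPM (SD, n = 2). The values of the genes lay far apart in both libraries, and both were somewhat higher in replicate 2. In whole muscle, fewer cells that express a gene and less of its RNA per cell cannot be told apart.

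By level, Mir101a ranked 85th and Mir101b 37th of the 2202 genes by mean CPM. Mir101a was 78th in replicate 2 and 89th in replicate 1, and Mir101b was 36th and 40th. Both lay above the median of the 278 genes with at least 10 counts in each library, called detected here, which was 123 CPM. Neither gene had a count on the opposite strand in either library.

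Together the pair held 7205 counts in replicate 2 and 5687 in replicate 1. As a share of all microRNA gene counts this was 0.314% and 0.292%, on average 0.303% ± 0.0161 (SD, n = 2). Mir101a was 15.9% of the pair in replicate 2 (exact 95% interval 15.1 to 16.8) and 14.5% in replicate 1 (13.5 to 15.4). The mean share was 15.2% ± 1.03 (SD, n = 2). Its count was thus 5.29-fold below that of Mir101b in replicate 2 (4.96 to 5.64) and 5.92-fold below in replicate 1 (5.50 to 6.38). On the log2 scale the difference of Mir101a from Mir101b was −2.40 in replicate 2 and −2.57 in replicate 1. A read of this size class covers a whole mature microRNA, so the counts were not divided by gene length. Divided by annotated length, the mean share of Mir101a was 17.3%. Intervals and floors hold for counting error alone, because reads were amplified and no molecular identifiers are listed.

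**Figure D1:**
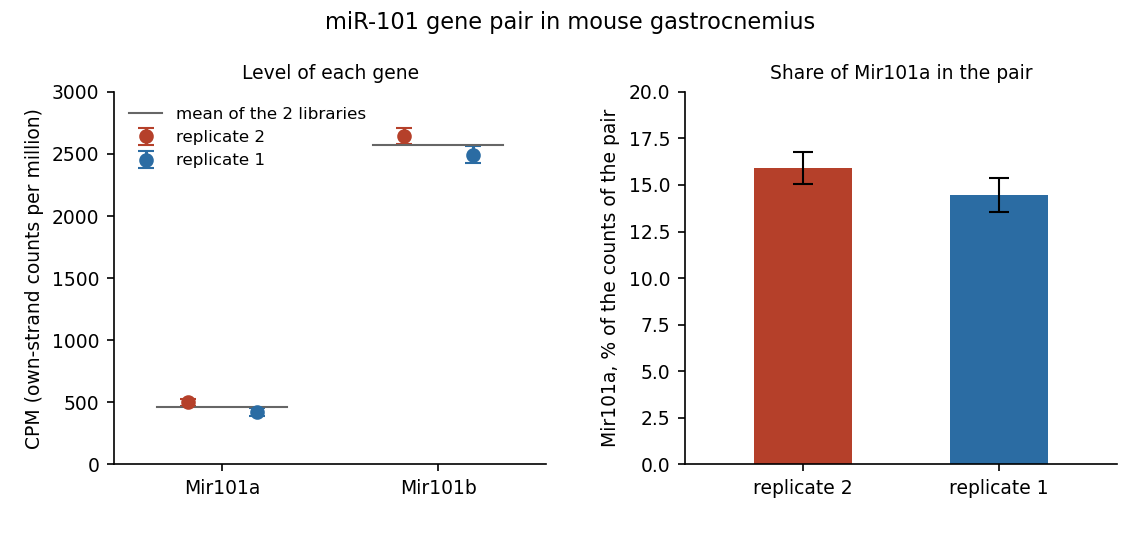
Left, CPM of Mir101a and Mir101b in replicates 2 and 1, with exact 95% intervals of counting error and a line at the mean of the 2 libraries. Right, counts of Mir101a as a percentage of the pair in each library, with exact 95% intervals; Mir101a stayed at 15.9% and 14.5%, so Mir101b held the rest in both libraries.

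The share of Mir101a rests on reads that could be placed at 1 gene, and the sequences above limit this differently for each gene. Reads that aligned to several places, 72.3% of the reads listed in replicate 2 and 70.1% in replicate 1, were counted in no gene. Another annotated gene, Mir101c (ENSMUSG00000106183.1, chr9:3038669-3038743), is listed by RefSeq with a mature sequence that lies whole within miR-101a-3p.
mmu-miR-101c: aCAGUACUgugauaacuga
These 19 nt are bases 2 to 20 of miR-101a-3p, so a read of miR-101a-3p that lacks its first and its last base matches both genes, while the full 21 nt occurs in no other microRNA gene. Mir101c had 0 counts in both libraries, which allows up to 1.31 CPM in replicate 2 and 1.54 CPM in replicate 1. Since its whole mature sequence is also in Mir101a, this 0 cannot separate a silent gene from reads that fit both. For miR-101b-3p, the longest stretch found in another microRNA gene was 16 nt, bases 1 to 16, in Mir101a. The 5p arms shared at most 13 nt (miR-101a-5p) and 10 nt (miR-101b-5p) with any other microRNA gene. The comparison covered the other 2201 microRNA genes and not the whole genome. How many miR-101a reads were left out in this way was not tested.

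Relatives by seed were few and lower than the pair. miR-144-3p and miR-582-5p share bases 2 to 7 with one of the 3p arms.
mmu-miR-144-3p: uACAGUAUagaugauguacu
mmu-miR-582-5p: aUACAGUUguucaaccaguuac
miR-144-3p, from a gene of red blood cells, shares these bases with miR-101a-3p and differs from it at base 8. Mir144 had 191 counts in replicate 2 and 204 in replicate 1, or 94.0 ± 15.0 CPM on average (SD, n = 2), below Mir101a in both libraries. miR-582-5p shares bases 2 to 7 with miR-101b-3p as listed. Mir582 had 15 counts in replicate 2 and 28 in replicate 1, or 10.5 ± 5.52 CPM on average (SD, n = 2). The count of a gene includes reads of both of its arms.

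The pair was then compared between the libraries. No condition differs between them. The test was a two-sided exact binomial test on counts with library sizes scaled by edgeR's TMM method. P-values were adjusted by Benjamini-Hochberg over the 278 detected genes, and a call needed an adjusted p under 0.05 and at least a 2-fold difference. Neither gene was called, while 33 of 278 detected genes (11.9%) were, 2.52% as higher and 9.35% as lower in replicate 2. Mir101a was 1.21-fold higher in replicate 2 (exact 95% interval 1.11 to 1.33), 0.28 on the log2 scale (SE 0.066, counting error), with an adjusted exact p = 5.20e-05. Mir101b was 1.09-fold higher (1.05 to 1.13), 0.12 on the log2 scale (SE 0.028, counting error), with an adjusted exact p = 5.45e-05. Both differences thus exceed counting error, as do those of 55.4% of the detected genes without the minimum fold, and both are small. Of the 278 genes, 112 had a smaller absolute log2 ratio than Mir101a and 50 a smaller one than Mir101b.

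The spread between animals could not be tested with 1 library on each side. From all detected genes, edgeR estimated a biological coefficient of variation of 0.352, and with this value edgeR's exact test gave an adjusted p of 1 for both genes. That coefficient comes from the differences between the same 2 libraries, so these p-values do not show that the libraries were alike. With an assumed coefficient of 0.2, the adjusted p of edgeR's exact test was 0.919 for Mir101a and 0.986 for Mir101b. The share of Mir101a in the pair, which needs no library scaling, was 1.45 percentage points higher in replicate 2. Its odds ratio was 1.12 (95% interval 1.01 to 1.24; two-sided Fisher's exact test, p = 0.0233), which again covers counting error only.

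**Figure D2:**
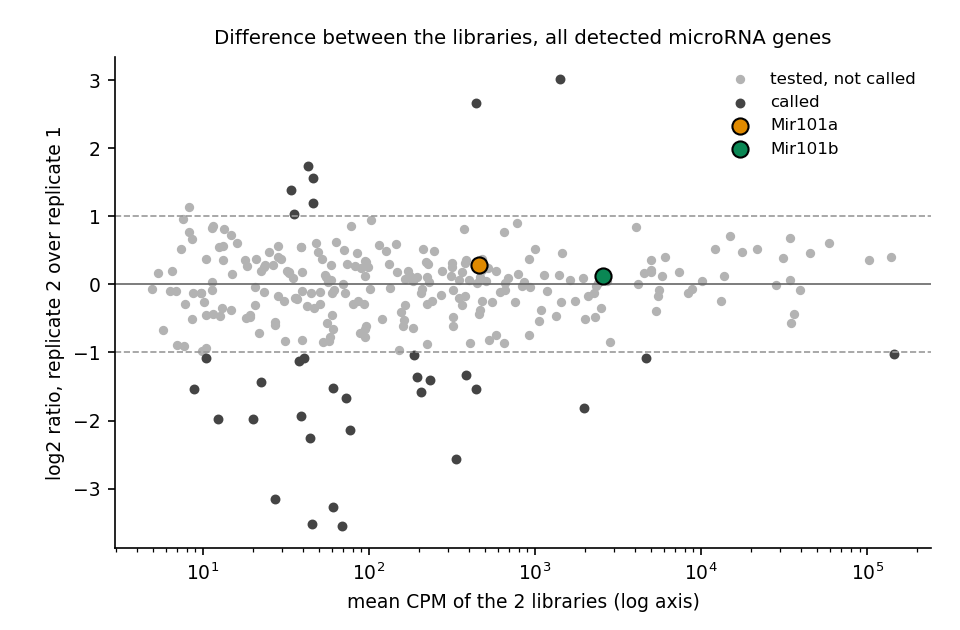
Each point is 1 of the 278 detected microRNA genes, placed by its mean CPM on a log axis and its log2 ratio of replicate 2 over replicate 1, with dashed lines at the 2-fold limits. Dark points are the 33 called genes; Mir101a at 0.28 and Mir101b at 0.12 lie close to 0.

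Marker microRNAs of several cell types differed more between the libraries than the pair did. All shares given here leave out reads that aligned to several places, so they do not measure how much of the microRNA of each cell type was present. Of the 10 listed microRNAs of striated muscle, 9 were detected. The list held 4.66% of counts in replicate 2 and 2.79% in replicate 1, mostly as Mir206. All 9 were higher in replicate 2. Of these, 2 were called, Mir499 (8.10-fold) and Mir208b (6.38-fold), beside 2.52% of all detected genes called higher. Mir1a-1, Mir1a-2, Mir133a-1 and Mir133a-2 had means of only 13.3, 212, 48.0 and 5.40 CPM. How many of their reads fitted several places was not tested. Of its defining members none was at 0, but Mir208a missed the minimum with 50 counts in replicate 2 and 4 in replicate 1. Both smooth muscle microRNAs, Mir143 and Mir145a, were detected, with 9.73% of counts in replicate 2 and 20.3% in replicate 1. Endothelial Mir126a held 15.7% and 12.1%, and the fibroblast list (3 of 3 detected) 3.18% and 4.35%. Leukocyte (4 detected of 5 listed), red cell (2 of 2), glial (Mir338) and liver (Mir122) markers held 0.246%, 0.0460%, 0.0855% and 0.00109% in replicate 2, against 0.315%, 0.0787%, 0.307% and 0.0110% in replicate 1. Members of the leukocyte and fibroblast lists did not move together. On the log2 scale, Mir142 and Mir223 were at −1.33 and −1.53, but Mir150 and Mir155 at 0.03 and 0.14. Mir21a and Mir199b were at −0.44 and −1.67, but Mir214 at 0.14. The part of these shifts in the values of Mir101a and Mir101b was not tested.

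Set beside other microRNAs known to repress Ezh2 in human or mouse cells, Mir101b ranked 8th by mean level and Mir101a 11th of the 24 genes counted together. The list has 22 genes, of which 18 were detected, and held 15.5% of counts in replicate 2 and 12.96% in replicate 1, against 0.314% and 0.292% for the miR-101 pair. The let-7 genes with Mir98, a family best known for its rise during differentiation, took 12.8% and 10.95% of counts. Mir26b, of a family that represses Ezh2 in differentiating myoblasts, reached 25457 CPM in replicate 2 and 18113 CPM in replicate 1. Mir214, which represses Ezh2 in mouse skeletal muscle cells, had 1453 and 1349 CPM. Mir101b was thus between Mir26b and Mir214 in both libraries, and Mir101a was below Mir214 in both.

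In the order of mean CPM, Mir101b followed Mir98 (2707 CPM in replicate 2 and 2690.5 CPM in replicate 1) and preceded Mirlet7e (1628 and 2371 CPM). Its own libraries lay between theirs without overlap, although the mean of Mir98, 2699 CPM, exceeded that of Mir101b by little more than the SD of Mir101b. Mir101a followed Mir214 and preceded Mirlet7c-2 (347 ± 39.2 CPM) and Mir26a-1 (318 ± 43.4 CPM; SD, n = 2 each), whose libraries lay below those of Mir101a. The lowest detected members were Mir138-1 and Mir138-2, at 77.3 ± 69.8 and 38.9 ± 32.8 CPM (SD, n = 2 each). Mir217 had 3 and 8 counts and missed the minimum. Mir124a-1, Mir124a-2 and Mir124a-3, genes of neurons, had 0 counts in both libraries. No listed mature sequence was found in these genes, so copies of it elsewhere could not be looked for. Whether their 0 counts leave out reads that fit several places was not tested.

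The remaining let-7 members ranged widely. Mirlet7g and Mirlet7i led the list at 45449 ± 9429 and 34452 ± 518 CPM (SD, n = 2 each), followed after Mir26b by Mirlet7d at 14933 ± 4907, Mirlet7b at 13187 ± 1791 and Mirlet7f-2 at 4985 ± 426 CPM. Mirlet7f-1, Mirlet7a-1, Mirlet7c-1 and Mirlet7a-2 had means of 183, 171, 160.1 and 94.5 CPM, and Mir26a-2 had 176 CPM. Of the 18 detected genes, 10 hold a mature sequence that also lies whole in another microRNA gene elsewhere in the genome, as Mir26a-1 and Mir26a-2 do, and reads of such a sequence fit several places. These 10 had means from 38.9 to 4985 CPM, and the other 8 from 1401 to 45449 CPM. Mirlet7f-2 was the highest of the 10, and the other 9, at up to 347 CPM, lay below all 8. Mir101a also holds such a sequence, that listed as miR-101c, which lies whole in Mir101c, although neither its own 5p nor its own 3p arm does. Mir101b holds none. The part of the copies in these levels was not tested.

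Between the libraries, 2 of the 18 detected list genes were called, Mir138-1 and Mir138-2, both lower in replicate 2, beside 9.35% of all detected genes called lower. The other 16 were not called, and 12 of the 18 had a ratio above 1 and 6 below. The list's median log2 ratio of replicate 2 over replicate 1 was 0.09, against −0.03 over all detected genes, and Mir101a and Mir101b had 0.28 and 0.12.

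**Figure D3:**
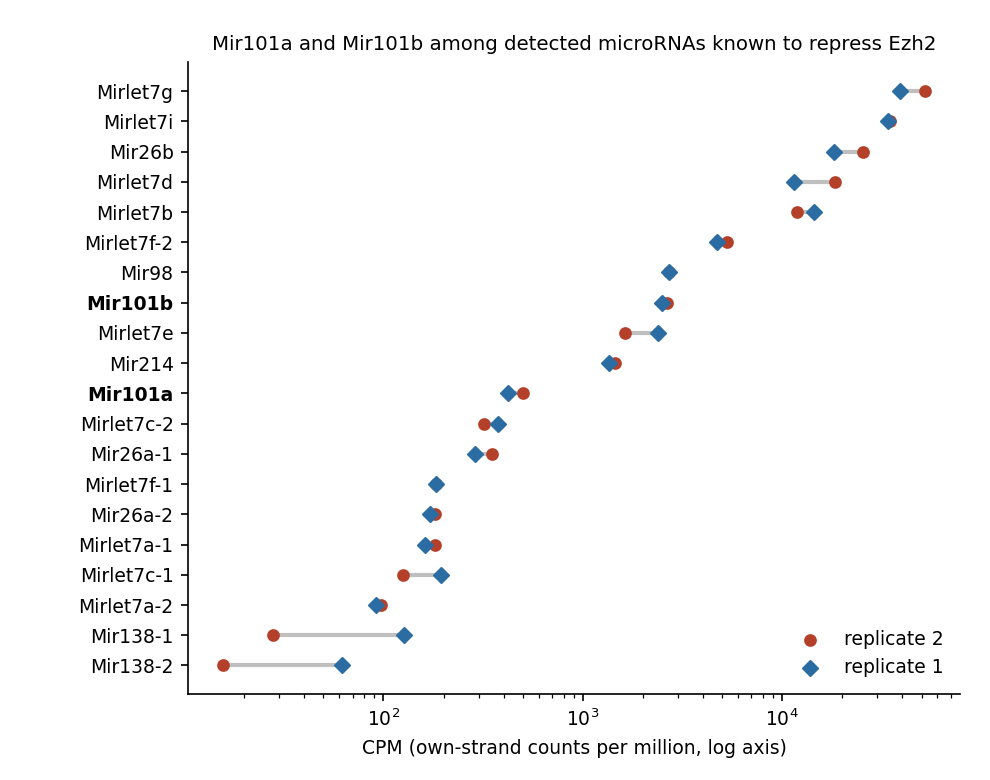
CPM of Mir101a, Mir101b and the 18 detected list genes in replicate 2 (circles) and replicate 1 (diamonds) on a log axis, ordered by mean; a grey bar joins the libraries of a gene. Mir101b sits between Mir98 and Mirlet7e and Mir101a between Mir214 and Mirlet7c-2, while Mir138-1 and Mir138-2 are the genes with the widest gap between the libraries.

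The genes nearest to each member by level were found from the log2 CPM of both libraries, so they are a description over 2 libraries. Their levels leave out reads that aligned to several places, and how many such reads each gene had was not tested. Nearest to Mir101a were Mir181b-2, at 535 CPM in replicate 2 and 423 CPM in replicate 1, and Mir181c, at 509 and 451 CPM. Mir676 followed at 479 and 456 CPM, and the 3 distances were 0.0974, 0.0999 and 0.129 on the log2 scale. Nearest to Mir101b were Mir98 at a distance of 0.114, Mir744 at 0.152 and Mir29c at 0.229. The levels of Mir744 were 2392 CPM in replicate 2 and 2415 CPM in replicate 1, and those of Mir29c 2275 and 2370.01 CPM.

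The reverse complements of the seeds were looked for in the annotated 3′ UTRs of mm10, to show what the listed sequences can pair with. No messenger RNA was measured. The motif of the miR-101a-3p seed is GTACTGT and that of the miR-101b-3p seed is TACTGTA, and they overlap in GTACTGTA, which holds both. TACTGTA also pairs with miR-101a-3p from its first base on, so TACTGTA alone is not particular to miR-101b-3p. Only the transcript strand was searched, in the longest annotated 3′ UTR of each of 20993 protein-coding genes, with a median length of 961 bases. GTACTGT occurred in 9.38% of these, TACTGTA in 12.22%, either of these in 17.32% and GTACTGTA in 2.92%. In Ezh2 the 3′ UTR is 402 bases long, and of the 1981 3′ UTRs of similar length (0.8 to 1.25 times) 2.88% hold GTACTGT and 0.56% hold GTACTGTA.

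Ezh2 held 2 matches, 59 and 114 bases after the stop codon on the minus strand of chromosome 6. They are printed with up to 26 bases each and the motif in capitals, because they differ in which member's seed they match.
Ezh2 at chr6:47530474-47530499: agcttcaggaaccttgaGTACTGTgg
Ezh2 at chr6:47530418-47530443: attctgaatttgcaaaGTACTGTAac
The match nearer to the stop codon holds the motif of miR-101a-3p alone, and the other holds both motifs. A match is a description of letters of the mm10 assembly and not a measured site.

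Of the 7 genes described as targets of miR-101 in human or mouse cells, 6 held GTACTGT, 7 held TACTGTA and 5 held the 8 letters with both. These genes are known largely through such matches, so the count is no separate evidence. Besides Ezh2 they are Fos, an AP-1 transcription factor, Mcl1, an inhibitor of apoptosis, Mycn, a growth regulator, Ptgs2, a cyclooxygenase, Dnmt3a, a DNA methyltransferase, and Dusp1, a phosphatase of MAP kinases. Mycn held 2 matches of 8 letters and 1 of TACTGTA alone. How common a match is depends on the length of the 3′ UTR. Among 3′ UTRs of similar length, TACTGTA occurred in 2.62% for Ezh2, 8.62% for Dusp1, 9.09% for Fos and 9.55% for Mycn. It occurred in 20.97% for Mcl1, 21.91% for Ptgs2 and 46.18% for Dnmt3a. Mcl1 held TACTGTA alone, and is shown with Fos for contrast.
Fos at chr12:85476977-85477002: caatagctatatccatGTACTGTAgt
Mcl1 at chr3:95660926-95660951: ttttaacagtccagttcTACTGTAgc
The match in Fos holds both motifs on the plus strand. That in Mcl1 fits the seed of miR-101b-3p as listed. It lacks the letter that pairs with base 8 of miR-101a-3p, but it pairs with bases 1 to 7 of miR-101a-3p.

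Among the other PRC2 genes, 2 of 6 held either motif, beside 17.32% of all 3′ UTRs searched, whose lengths were not matched to these. Eed, the subunit that binds methylated histone H3, held GTACTGT alone, and Rbbp7, a histone-binding subunit, held the 8 letters with both. Ezh1, the second methyltransferase of the complex, Suz12, Jarid2 and Rbbp4 held neither motif in these 3′ UTRs. Among 3′ UTRs of similar length, GTACTGT occurred in 2.93% for Eed and 5.4% for Rbbp7. The share was 11.95% for Ezh1, 13.45% for Suz12, 10.98% for Jarid2 and 18.74% for Rbbp4.

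**Figure D4:**
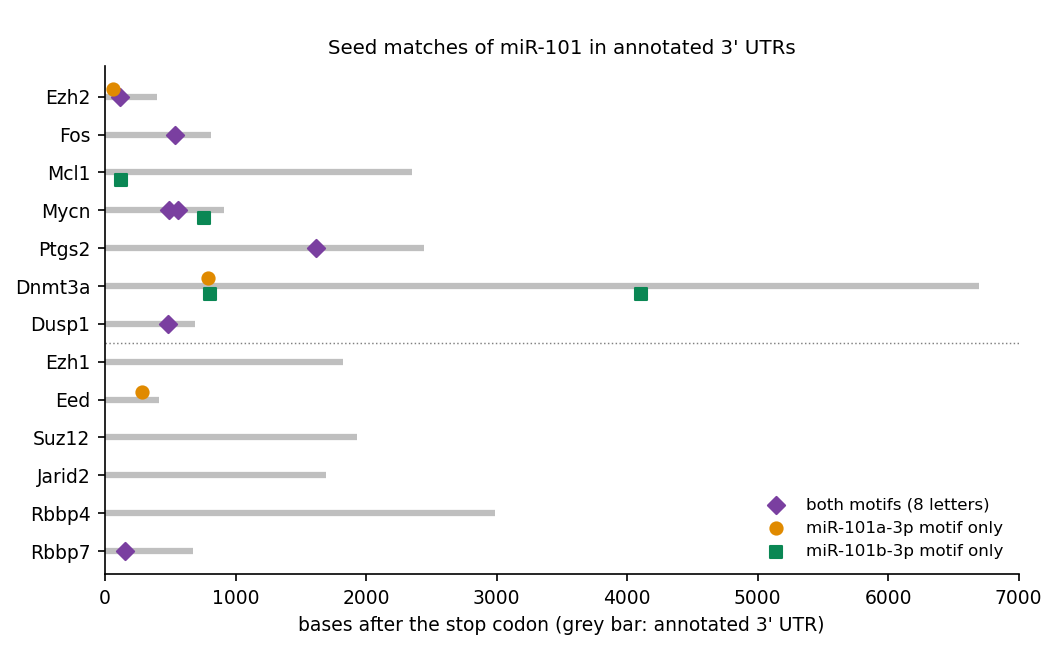
Annotated 3′ UTRs (grey bars, in bases after the stop codon) of 7 genes described as miR-101 targets (above the dotted line) and 6 other PRC2 genes, with seed matches marked by kind. Ezh2 holds 2 matches near the stop codon, 1 of them with both motifs, and 4 of the 6 other PRC2 genes hold none.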

How the data were processed

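Each deposited file lists unnormalized read counts by microRNA gene, in columns for either strand, the gene's own strand and the opposite strand. The authors' annotation was GENCODE mouse release 21 on mm10, per the text notes deposited beside the files. Aligner and counter: not given in the sources used here. Rows that name no gene, 84.1% of the reads listed in replicate 2 and 79.3% in replicate 1, were left out of library sizes. Own-strand totals were 2291821 of 14377558 reads in replicate 2 and 1950204 of 9410562 in replicate 1, so 1 count is 0.436 and 0.513 CPM. The floor of 3 counts is 1.31 and 1.54 CPM.

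CPM used own-strand totals. Log2 ratios added 0.5 counts. All 2202 gene identifiers matched the annotation. The members and lists were chosen with earlier results of these data known. Named genes are the members, their seed relatives, the Ezh2 list, the marker lists and the 3 genes nearest to each member by level. Hairpin and mature sequences came from RefSeq (GRCm38.p6) and 3′ UTRs from GENCODE transcripts. Whether the CAST/EiJ alleles of these animals carry the same letters was not checked. Mir142hg of the leukocyte list was not found under that name. With a single group, edgeR's quasi-likelihood test has nothing to compare and was left out. The exact binomial test was checked on simulated counts with counting error alone, so that check does not cover variation between libraries. Alternatives changed the scaling, strand, denominator, count and fold minimum, dispersion, gene length and libraries. Software was Python 3.11.15 (scipy 1.17.1, numpy 2.4.6, Biopython 1.88, pandas 2.3.3, matplotlib 3.10.9) and R 4.3.3 (edgeR 4.0.16, DESeq2 1.42.0).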

Additional observations from a re-analysis of the deposited data

Results flagged for a closer look

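Reads outside the microRNA gene counts are listed here since they exceed the limit of 3 counts in data that no comparison used. Multiply aligned reads were 72.3% of the reads listed in replicate 2 and 70.1% in replicate 1. Reads listed as placed outside any microRNA gene, without those aligned to several places or not aligned, were 1.9% and 1.73%. Reads that were ambiguous when strand was ignored were 4.76% and 4.94%. A group of 2 libraries is too small for a search for one that stands apart, and none was made.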

How the results depend on the processing

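No alternative turned the direction of a difference between the libraries. The count minimum cannot move a log2 ratio, and with no opposite-strand count the pair share cannot change with the strand, so those settings say nothing about stability. Either-strand counts, with their own smaller total, gave means of 633 CPM for Mir101a and 3522 CPM for Mir101b, mean ranks of 73 and 33, and 19.3% for the Ezh2 list. With all reads listed as the denominator the means were 83.5 and 469 per 1000000 reads. Counts per annotated length gave a Mir101a share of 17.3%. Leaving out 1 of 2 libraries gives the other's value, 421 to 500.04 CPM and ranks 78 to 89 for Mir101a, 2495 to 2644 CPM and ranks 36 to 40 for Mir101b, 14.5% to 15.9% for the share and 12.96% to 15.5% for the Ezh2 list. Under other scalings and either-strand counts, the log2 ratio was 0.25 to 0.31 for Mir101a and 0.08 to 0.15 for Mir101b. Without the fold minimum both genes passed, at 0.28 and 0.12, with 154 genes called. The main 33 calls were 31 to 34 under other scalings and either-strand counts, 48 with no count minimum and 22 with an assumed coefficient of variation of 0.2. They became 18 with a minimum of 50 counts, where fewer genes were tested, and 7 with the estimated dispersion. No paired analysis was possible because there is only 1 group. Depth resolves differences well below 2-fold for both genes, while 2 libraries limit any statement on the spread between animals.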
